A study of Mus musculus with 6 samples.

Results

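The 56 genes described here encode the machinery of cell division: the kinases and cyclins that start mitosis, condensins, kinetochore and spindle checkpoint proteins, spindle motors, the proteases and ubiquitin enzymes of mitotic exit, and the proteins that pinch the daughter cells apart. They were chosen by gene name from what they are known to do, with earlier results of these data known. All 56 were listed in the deposited RNA sequencing table, which holds 20066 genes. RNA came from primary cardiomyocytes of C57BL/6 mice at P0-1, kept for 96 h either with DMSO, the solvent, or with cell-permeable αKG (α-ketoglutarate), an intermediate of the Krebs cycle that is also a co-substrate of many demethylases. There were 3 libraries per group, the cells carried no transgene or engineered allele according to the labels, and the αKG concentration is 100 µM by the labels and another in the methods of the study. The cells were dissociated from the hearts of pups and grown on fibronectin in medium with serum, with no sorting step described for them. For neonatal cardiomyocytes the methods, in their part on imaging, describe a sample as the cells of 1 isolation from hearts that were pooled. The labels do not say whether this holds for the RNA samples or whether DMSO and αKG samples of the same number share an isolation, and without separate isolations the p-values would measure only a technical spread.

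Mitotic genes are transcribed mainly in G2 and M phase, when the forkhead factor FOXM1 and B-MYB, which joins the MuvB complex, act on their promoters. In resting cells the same promoters are held silent by the DREAM complex, which pairs MuvB with E2F4 and a pocket protein. Cardiomyocytes of newborn mice still copy their DNA and divide for a few days before they leave the cell cycle, and many pass a last round without cytokinesis and become binucleate. Which of the division genes differed between αKG and DMSO cultures, and in which libraries, was therefore asked gene by gene. Values per library are normalised read counts, given in the order of replicates 1, 2 and 3, and fold changes are differences of log2(normalised count + 1), αKG minus DMSO, with the standard error (SE) of a limma fit over all genes.

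The DNA letters that the MuvB complex reads are shared by most of these genes. RefSeq promoters (GRCm38.p6, from 250 bases before to 50 bases after a start site) were at hand for 47 of the 56 genes, and 35 of the 47, or 74.5%, held TTTGAA or TTCGAA on either strand, the letters of the cell cycle genes homology region (CHR), against 16.7% of the 12289 listed genes with a promoter. CCAAT, the letters bound by NF-Y, stood on either strand in 31, or 66%, against 42.5%, and 29 held both kinds of letters, 61.7% against 7.1%. Over all 32851 promoters of the RefSeq table, 19.2% held CHR letters, 37.4% CCAAT and 7.52% both. Matches of the 2 kinds can share a letter, as in *Cdca8*, where CHR letters start at base 14 and CCAAT letters at base 19. A match describes the sequence and is no evidence of binding. For 6 genes of different roles with small p-values in the comparison below, 170 bases before and 30 bases after the start are shown, with every CHR and CCAAT match of the window in capitals in either orientation. *Kif20b* (chr19:34922188-34922387 on the plus strand), a late cytokinesis kinesin, has CHR letters at 2 adjoining places just after its start. *Kif15* (chr9:122950911-122951110 on the plus strand), a spindle kinesin, has them 19 bases before the start and has no CCAAT. Outside the shown window, *Kif15* also has CHR letters 234 bases before the start. *Cenpe* (chr3:135212393-135212592 on the plus strand), the kinetochore motor, has a CCAAT and no CHR letters. *Top2a* (chr11:99024160-99024359 on the minus strand), which untangles sister DNA, has 3 CHR and 4 CCAAT matches in the shown window. Further matches of both kinds lie before that window. *Bub1* (chr2:127831830-127832029 on the minus strand), a checkpoint kinase, and *Espl1* (chr15:102296123-102296322 on the plus strand), the protease separase, hold both kinds.
Kif20b: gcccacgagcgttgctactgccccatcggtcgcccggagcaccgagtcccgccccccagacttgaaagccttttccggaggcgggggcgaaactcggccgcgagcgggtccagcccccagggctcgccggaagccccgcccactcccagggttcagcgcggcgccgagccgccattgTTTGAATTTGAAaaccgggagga
Kif15: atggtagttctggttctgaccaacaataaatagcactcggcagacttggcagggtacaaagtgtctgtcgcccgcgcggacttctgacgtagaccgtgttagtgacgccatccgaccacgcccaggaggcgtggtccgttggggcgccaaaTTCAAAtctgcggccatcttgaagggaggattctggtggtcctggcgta
Cenpe: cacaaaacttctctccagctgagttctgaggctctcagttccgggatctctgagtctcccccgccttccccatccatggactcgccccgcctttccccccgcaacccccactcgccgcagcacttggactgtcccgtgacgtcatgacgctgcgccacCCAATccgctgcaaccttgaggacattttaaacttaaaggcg
Top2a: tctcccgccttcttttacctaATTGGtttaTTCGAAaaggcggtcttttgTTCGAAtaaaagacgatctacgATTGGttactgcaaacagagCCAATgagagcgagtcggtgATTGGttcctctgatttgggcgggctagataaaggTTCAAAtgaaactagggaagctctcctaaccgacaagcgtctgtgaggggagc
Bub1: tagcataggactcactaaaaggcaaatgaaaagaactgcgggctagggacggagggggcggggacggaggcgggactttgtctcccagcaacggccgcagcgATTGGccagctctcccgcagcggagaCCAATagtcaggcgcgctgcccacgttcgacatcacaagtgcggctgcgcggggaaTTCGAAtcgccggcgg
Espl1: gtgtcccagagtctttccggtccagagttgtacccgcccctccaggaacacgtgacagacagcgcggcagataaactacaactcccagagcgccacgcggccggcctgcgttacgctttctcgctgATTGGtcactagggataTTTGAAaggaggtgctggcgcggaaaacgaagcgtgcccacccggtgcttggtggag
The 35 genes with CHR letters had a median log2 fold change of 0.87 and the 12 without them 0.79, whereas the 29 genes with both kinds of letters and the 18 others were level at 0.83. These values describe the lists and were not tested against each other.

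The division genes were higher after αKG nearly throughout. Of the 56, 55 had a positive log2 fold change, with a median of 0.84 (range -0.08 to 1.43), whereas the median over all 20066 genes was 0.04. At a Benjamini-Hochberg adjusted p under 0.05 in limma, 22 rose and 0 fell, against 2.83% of all genes called higher and 0.952% called lower. At an unadjusted p under 0.05, 52 were higher and 0 lower, against 15.7% and 12.4% of all genes. The 3 αKG libraries lay above all 3 DMSO libraries in 42 of the 56, against 13.7% of all genes. In bulk RNA, more dividing cells and more division RNA per cell cannot be told apart. The number of calls, unlike the direction, turned on settings and on single libraries. It was 12 with a pseudocount of 0.1, where 1.37% of all genes were called higher, and 0 when limma was given a constant prior variance, where 0.125% were called higher and 38 of the 56 had an unadjusted p under 0.05. With libraries left out, it was 34 without DMSO replicate 1, 23 without αKG replicate 3, and 0 without DMSO replicate 2, DMSO replicate 3, αKG replicate 1 or αKG replicate 2. The fits without DMSO replicate 1 and αKG replicate 3 called 0.753% and 19.3% of all genes higher. The 4 fits with 0 calls called 0.015%, 0.0199%, 0% and 0% of all genes higher, and 37, 38, 28 and 37 of the 56 had an unadjusted limma p under 0.05 in them.

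**Figure D1:**
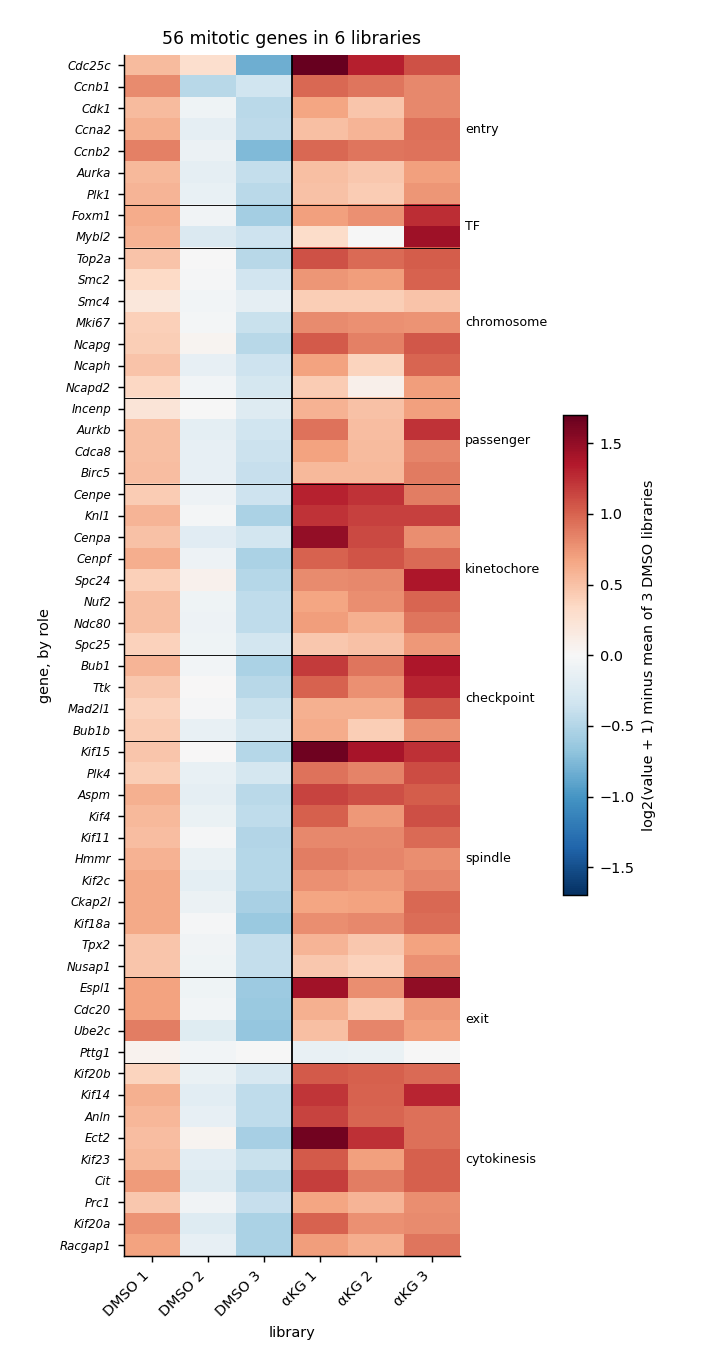
Each row is 1 of the 56 genes, ordered by role, each column 1 library, and the colour is log2(normalised count + 1) minus the mean of the 3 DMSO libraries. DMSO replicate 1 stands above the other DMSO libraries throughout, and the αKG columns are red except in *Pttg1* and, for αKG replicate 2, *Mybl2* and *Ncapd2*, which are close to white.

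The DMSO libraries themselves differed in these genes. Their summed normalised counts were 23647, 15916 and 12701 in DMSO and 30521, 28600 and 31219 in αKG. DMSO replicate 1 was thus the highest control and DMSO replicate 3 the lowest, and both groups were separate in the sum. The ordering held gene by gene: replicate 1 exceeded replicate 2 and replicate 2 exceeded replicate 3 in 54 of the 56, against 14.5% of all genes. DMSO replicate 3 was the lowest of the 6 libraries in 54, for which the share over all genes was not taken. Medians over the genes, relative to the DMSO mean, were 0.52, -0.09 and -0.43 on the log2 scale in DMSO and 0.80, 0.78 and 0.94 in αKG. The distance from DMSO replicate 1 to DMSO replicate 3 was therefore about as large as the fold change, and the αKG mean exceeded DMSO replicate 1 by a median of 0.29. Counting error is far smaller than this spread, since it was between 0.549% and 0.865% of the summed estimated reads of a library. Estimated reads in genes were 3726069 to 4427187 per library. This error covers counting alone, and whether copies of a molecule made by PCR remain was not tested.

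Markers of the cell types that such a culture could hold were set beside this ordering. All 14 cardiomyocyte markers were listed, with summed counts of 80695 to 83447 in DMSO and 85917 to 118925 in αKG, and 1 was called, *Myh7*. Most of this sum is *Ttn*, with 51569 to 54216 in DMSO and 80306, 84136 and 55569 in αKG, and the median log2 fold change of the 14 was 0.07, with 4 higher and 3 lower at an unadjusted p under 0.05. Of 12 fibroblast markers 0 were called in limma and 7 had an unadjusted p under 0.05, with sums of 4650 to 4889 in DMSO and 10195, 9760 and 4740 in αKG. The 10 epicardial and mesothelial markers, of which 0 were called and 2 had an unadjusted p under 0.05, summed to 483 to 519 in DMSO and to 1279, 1238 and 456. Both lists were thus at the DMSO level or below it in αKG replicate 3, where the division genes were highest: their medians there were -0.02 and -0.79 against 0.94. Of 12 endothelial markers 9 fell, against 0.952% of all genes called lower, with sums of 2361 to 2482 in DMSO and 1604 to 1746 in αKG. Of 10 smooth muscle and pericyte markers 2 rose, against 2.83% of all genes called higher, with sums of 4306 to 4415 and 4613 to 5027. Only 4 of 10 macrophage markers were listed, *Ptprc*, *Adgre1* and C1q genes not among them. The 4 summed to 35, 28 and 22 in DMSO, in the order of the division genes, and to 29, 41 and 24 in αKG. These counts are low, and *Csf1r*, with 2, 2 and 6 in DMSO, ran against that order. Among the listed markers, *Cldn5* was at 0 in DMSO replicate 2 and αKG replicate 1, *Mfap5* in DMSO replicate 3, and *Muc16*, *Kcnj8* and *Csf1r* in αKG replicate 3. Across all genes αKG replicate 3 correlated more closely with the DMSO libraries (0.977 to 0.980) than with the other αKG libraries (0.962 and 0.963), and the part of cell composition in the results below was not tested.

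**Figure D2:**
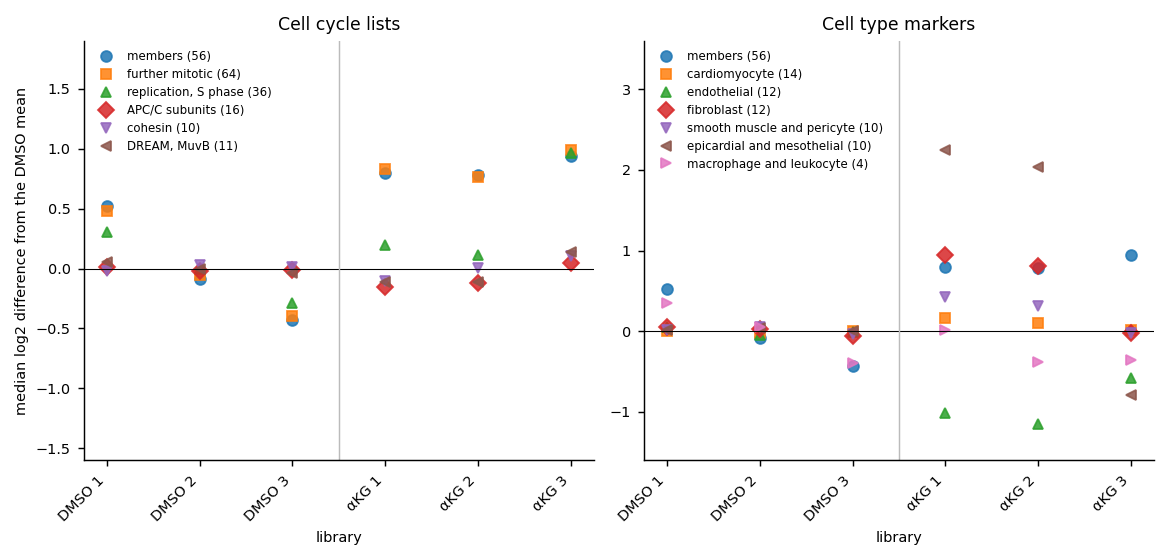
Median log2 difference from the DMSO mean in each library, for cell cycle lists on the left and cell type markers on the right, with the number of genes in brackets and axes of different range. The 56 division genes and 64 further mitotic genes lie together in every library, whereas fibroblast and epicardial markers are high in αKG replicates 1 and 2 and not in αKG replicate 3.

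Mitotic entry depends on cyclin-dependent kinase 1 with cyclin A or B, on the phosphatase CDC25C, which activates it, and on Aurora A and Polo-like kinase 1. Of these 7 genes, 0 passed the limma threshold, 7 were higher at an unadjusted p under 0.05, and the groups did not overlap in 3. *Cdk1* had 214, 140 and 107 normalised counts in DMSO and 236, 204 and 260 in αKG. Of the αKG libraries, 2 exceeded every control, but αKG replicate 2 lay below DMSO replicate 1. Its log2 fold change was 0.65 ± 0.22 (SE, adjusted p = 0.102). *Ccna2*, cyclin A2, measured 527, 312 and 255 against 495, 518 and 666, so that αKG replicates 1 and 2 lay below DMSO replicate 1. The log2 fold change of *Ccna2* was 0.67 ± 0.23 (adjusted p = 0.104), and 12.5% of its exon bases are shared with *Exosc9* on the opposite strand. The B cyclins were lower in number and did not overlap. *Ccnb1* had 137, 56 and 61 against 154, 147 and 138 and a log2 fold change of 0.90 ± 0.29 (adjusted p = 0.0921). *Ccnb2* had 176, 90 and 57 against 192, 182 and 185 and a log2 fold change of 0.94 ± 0.32 (adjusted p = 0.105). In both cyclins the αKG libraries were nearly level, and the control libraries spread widely.

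*Cdc25c* had the largest fold change of the entry genes, from 48, 40 and 18 normalised counts to 111, 83 and 70. Every αKG library exceeded every control, and the log2 fold change of 1.38 ± 0.34 missed the threshold (adjusted p = 0.0536). Of its exon bases, 12.7% are shared with another gene on the opposite strand, and no strand setting is stated for the counting. *Aurka*, the kinase of the spindle poles, had 205, 125 and 105 against 198, 192 and 227 and a log2 fold change of 0.56 ± 0.22 (adjusted p = 0.133). *Plk1*, which drives entry, centrosome maturation and exit, had 237, 144 and 115 against 224, 213 and 265 and a log2 fold change of 0.56 ± 0.23 (adjusted p = 0.148). Both kinases were above DMSO replicates 2 and 3 in every αKG library and above DMSO replicate 1 in αKG replicate 3 alone.

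The transcription factors behind the programme split by library. *Foxm1* had 282, 175 and 122 normalised counts in DMSO and 296, 313 and 436 in αKG, without overlap, and its log2 fold change of 0.91 ± 0.26 did not pass the threshold (adjusted p = 0.0774). *Mybl2*, which encodes B-MYB, had 90, 50 and 46 against 74, 59 and 163. The αKG value rested on replicate 3, which exceeded the mean of the other αKG libraries by 1.29 on the log2 scale, and the log2 fold change was 0.59 ± 0.37 (adjusted p = 0.322). αKG replicates 1 and 2 of *Mybl2* stood between the highest and the middle control.

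Chromosome condensation and the chromosome surface held 5 called genes of 7. *Mki67*, the surface protein Ki-67 whose antibody is the usual stain for cycling cells, had 2738, 2034 and 1601 normalised counts in DMSO and 3632, 3570 and 3516 in αKG. The αKG libraries were within a narrow band above all controls, and *Mki67* rose by 0.78 ± 0.15 on the log2 scale (adjusted p = 0.034). *Top2a*, DNA topoisomerase II alpha, had 1186, 843 and 614 against 1797, 1657 and 1732. It rose by 1.02 ± 0.19 (adjusted p = 0.0289), again with αKG libraries close together and apart from the controls. The core subunits shared by both condensins rose as well. *Smc2* went from 571, 443 and 359 to 754, 734 and 898, a log2 fold change of 0.82 ± 0.15 (adjusted p = 0.0302). *Smc4* went from 1137, 968 and 901 to 1333, 1339 and 1397, a log2 fold change of 0.44 ± 0.09 (adjusted p = 0.0337), which was the smallest rise among the called genes and had the smallest SE. Groups did not overlap in either. Corrected for GC content and exon length, *Smc2* was at 0.62 (adjusted p = 0.065) and *Smc4* at 0.28 (adjusted p = 0.104), and neither passed.

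The subunits particular to condensin I were less uniform. *Ncapg* rose from 242, 187 and 130 to 373, 327 and 376, by 0.98 ± 0.19 (adjusted p = 0.0349), with 13.4% of its exon bases shared with an opposite gene. With the GC and length correction the log2 fold change of *Ncapg* was 0.43 and the call was lost (adjusted p = 0.262). *Ncaph*, the kleisin that closes the ring, had 317, 206 and 178 against 364, 296 and 450, and *Ncapd2* had 712, 539 and 455 against 756, 593 and 915. In both, αKG replicate 2 lay below DMSO replicate 1, and the log2 fold changes of 0.68 ± 0.21 (adjusted p = 0.0862) and 0.41 ± 0.18 (adjusted p = 0.171) did not pass.

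The chromosomal passenger complex carries Aurora B to centromeres and later to the spindle midzone. Its scaffold *Incenp* had 372, 316 and 274 normalised counts in DMSO and 481, 451 and 516 in αKG and rose by 0.60 ± 0.12 (adjusted p = 0.0344). Its kinase *Aurkb* had 100, 62 and 55 against 134, 101 and 165, and αKG replicate 2 lay 1 count above DMSO replicate 1. The log2 fold change of *Aurkb* was 0.89 ± 0.25 (adjusted p = 0.0694). The small subunits *Birc5*, survivin, with 185, 117 and 98 against 189, 189 and 237, and *Cdca8*, borealin, with 249, 159 and 135 against 281, 255 and 312, had log2 fold changes of 0.66 ± 0.21 (adjusted p = 0.0938) and 0.68 ± 0.20 (adjusted p = 0.0771). None of the 4 overlapped between groups, and 1 of them passed the threshold.

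Kinetochore genes did not overlap between groups in 8 of 8, and 4 passed the threshold, with a median log2 fold change of 1.00. *Cenpe*, a kinesin that carries chromosomes towards the spindle equator, had 578, 404 and 336 normalised counts in DMSO and 1062, 1002 and 783 in αKG. The highest control was well below the lowest αKG library, and *Cenpe* rose by 1.13 ± 0.18 (adjusted p = 0.0204). *Cenpa*, the histone H3 of centromeres, had 270, 166 and 153 against 535, 415 and 330 and rose by 1.13 ± 0.22 (adjusted p = 0.0357). In both genes αKG replicate 1 was the highest and αKG replicate 3 the lowest of the treated libraries. αKG replicate 3 was the lowest of the αKG libraries in 12 of the 56. *Knl1*, the scaffold to which the checkpoint proteins dock, went from 487, 318 and 223 to 764, 727 and 730, a rise of 1.18 ± 0.22 (adjusted p = 0.0304). *Cenpf*, a large protein of the outer kinetochore, went from 1300, 792 and 582 to 1689, 1774 and 1639, a rise of 1.01 ± 0.22 (adjusted p = 0.0445). These αKG values were tight, and the controls differed among themselves.

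The NDC80 complex, which grips the microtubule end, had 0 of 4 subunits called in limma and 4 of 4 with an unadjusted p under 0.05. *Ndc80* had 295, 194 and 153 normalised counts in DMSO and 339, 314 and 388 in αKG, and *Nuf2* had 338, 225 and 175 against 378, 409 and 470. *Spc24* had 82, 65 and 44 against 108, 109 and 162, and *Spc25* had 386, 279 and 237 against 405, 415 and 493. The lowest αKG library lay close above DMSO replicate 1 in *Ndc80*, *Nuf2* and *Spc25* and farther above it in *Spc24*. All 4 were separate between groups, and all were highest in αKG replicate 3. Their log2 fold changes lay between 0.56 and 1.00, and the smallest adjusted p of the 4 was 0.0533, for *Spc24*.

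The spindle checkpoint delays anaphase until every kinetochore is attached. *Bub1* had 156, 101 and 71 normalised counts in DMSO and 239, 196 and 270 in αKG and rose by 1.16 ± 0.25 (adjusted p = 0.0422). *Ttk*, the kinase MPS1 at the top of the pathway, had 126, 92 and 66 against 185, 158 and 226 and rose by 1.03 ± 0.23 (adjusted p = 0.0435). *Mad2l1*, MAD2, which captures CDC20, had 151, 113 and 88 against 175, 175 and 241, without overlap, and its log2 fold change was 0.76 ± 0.20 (adjusted p = 0.0637). *Bub1b*, BUBR1 of the mitotic checkpoint complex, had 450, 304 and 269 against 517, 443 and 571. Here αKG replicate 2 was lower than DMSO replicate 1, and the log2 fold change was 0.61 ± 0.17 (adjusted p = 0.0757).

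**Figure D3:**
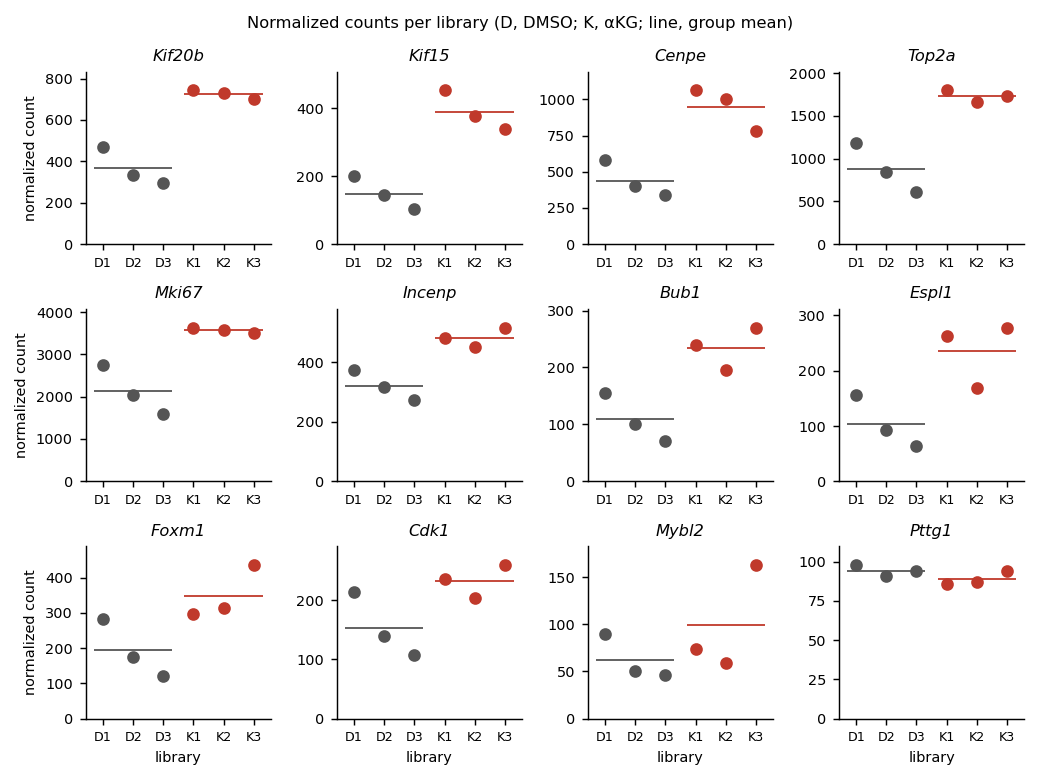
Normalised counts of 12 of the genes in each library on axes that start at 0, with grey points for DMSO (D), red points for αKG (K) and a line at each group mean. The groups are separate in the panels from *Kif20b* to *Foxm1* and overlap in *Cdk1*, *Mybl2* and *Pttg1*.

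Spindle motors and spindle proteins gave the largest fold change of the set. *Kif15*, a kinesin that helps hold the spindle poles apart, had 199, 144 and 102 normalised counts in DMSO and 452, 378 and 339 in αKG. Every αKG library exceeded the highest control by a wide margin, and *Kif15* rose by 1.43 ± 0.21 (adjusted p = 0.0152). *Kif11*, the main pole-separating kinesin, had 662, 453 and 325 against 812, 815 and 897 and rose by 0.87 ± 0.20, just inside the threshold (adjusted p = 0.0489). *Kif4*, a chromosome-arm kinesin, went from 426, 268 and 216 to 588, 487 and 621, a rise of 0.95 ± 0.21 (adjusted p = 0.0445), with 15.1% of its exon bases shared with an opposite gene. *Aspm*, a spindle-pole protein, went from 968, 571 and 460 to 1411, 1353 and 1295, a rise of 1.09 ± 0.21 (adjusted p = 0.035). *Plk4*, which starts centriole duplication, went from 178, 122 and 108 to 253, 239 and 289, a rise of 0.96 ± 0.18 (adjusted p = 0.0294). In all 5 the groups were separate.

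The other 6 spindle genes did not pass the threshold, with adjusted p-values from 0.0592 (*Hmmr*) to 0.118 (*Nusap1*), and all had an unadjusted p under 0.05. *Hmmr*, which acts with TPX2 at spindle poles, had 832, 511 and 394 normalised counts against 1004, 981 and 953 in αKG. *Kif2c*, a kinesin that takes microtubules apart, had 229, 130 and 104 against 250, 244 and 259. *Kif18a*, a kinesin that dampens chromosome movement, had 123, 77 and 50 against 136, 138 and 151. These 3 were separate between groups, as was *Ckap2l*, with 502, 301 and 219 against 510, 517 and 632. *Tpx2*, the activator of Aurora A, overlapped, with 602, 413 and 325 against 643, 594 and 695. *Nusap1*, a microtubule binder, had 409, 278 and 222 against 405, 386 and 502. In *Tpx2* αKG replicate 2, and in *Nusap1* αKG replicates 1 and 2, stood just below DMSO replicate 1.

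The 4 genes of anaphase and mitotic exit had the lowest median log2 fold change of the roles, 0.64, and 0 passed in limma, with 1 at an unadjusted p under 0.05. The anaphase-promoting complex, with its activator CDC20 and the ubiquitin-conjugating enzyme UBE2C, destroys securin and the B cyclins, which frees separase to cut cohesin. *Espl1*, separase, had 156, 92 and 63 normalised counts in DMSO and 262, 168 and 278 in αKG, without overlap, and a log2 fold change of 1.24 ± 0.30 just outside the threshold (adjusted p = 0.0521). *Cdc20* had 203, 123 and 81 against 193, 173 and 211, a log2 fold change of 0.60 ± 0.27 (adjusted p = 0.183). *Ube2c* had 77, 36 and 26 against 60, 75 and 68, with its highest value in DMSO replicate 1, and a log2 fold change of 0.68 ± 0.34 (adjusted p = 0.221), with 22.8% of its exon bases shared with *Tnnc2*, the gene of fast skeletal troponin C on the opposite strand. *Pttg1*, securin, was the exception among the 56: it had 98, 91 and 94 against 86, 87 and 94. Its log2 fold change was -0.08 ± 0.13 (adjusted p = 0.703), with a 95% interval from -0.38 to 0.21, and it was also the gene in which the DMSO libraries differed least, by a ratio of 1.04 between replicates 1 and 3.

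Cytokinesis genes were separate between groups in 8 of 9, and 5 passed the threshold, with a median log2 fold change of 1.01. *Kif20b*, a kinesin of the late bridge, had 467, 333 and 297 normalised counts in DMSO and 743, 729 and 700 in αKG. It rose by 1.01 ± 0.14 and had the smallest adjusted p of the 56 (adjusted p = 0.0122). *Ect2*, which switches on RhoA at the cleavage furrow, went from 181, 130 and 85 to 394, 300 and 243, a rise of 1.27 ± 0.26 (adjusted p = 0.0365). *Anln*, anillin, the scaffold of the contractile ring, went from 614, 375 and 307 to 916, 821 and 793, a rise of 1.02 ± 0.21 (adjusted p = 0.0363). The αKG libraries of *Kif20b* and *Anln* were close together, and those of *Ect2* were spread, with replicate 1 the highest. *Kif14*, the kinesin that brings citron kinase to the midbody, went from 210, 121 and 102 to 321, 277 and 340, a rise of 1.18 ± 0.23 (adjusted p = 0.0345). *Kif23*, the motor of centralspindlin, went from 389, 235 and 205 to 546, 433 and 538, a rise of 0.92 ± 0.21 (adjusted p = 0.0453).

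The partners of these genes did not pass the threshold. *Racgap1*, the GTPase-activating partner of *Kif23*, had 430, 241 and 183 normalised counts in DMSO and 439, 408 and 504 in αKG. It overlapped through αKG replicate 2, with a log2 fold change of 0.75 ± 0.25 (adjusted p = 0.102). *Cit*, citron kinase, had 242, 126 and 103 against 332, 269 and 298, a log2 fold change of 1.02 ± 0.26 (adjusted p = 0.0586). *Prc1*, which bundles midzone microtubules, had 656, 459 and 364 against 763, 712 and 829, and *Kif20a*, which delivers the passenger complex there, had 450, 227 and 183 against 532, 456 and 463. The last 3 were separate between groups, and *Prc1* and *Kif20a* share 11.1% and 29.3% of their exon bases with opposite genes.

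**Figure D4:**
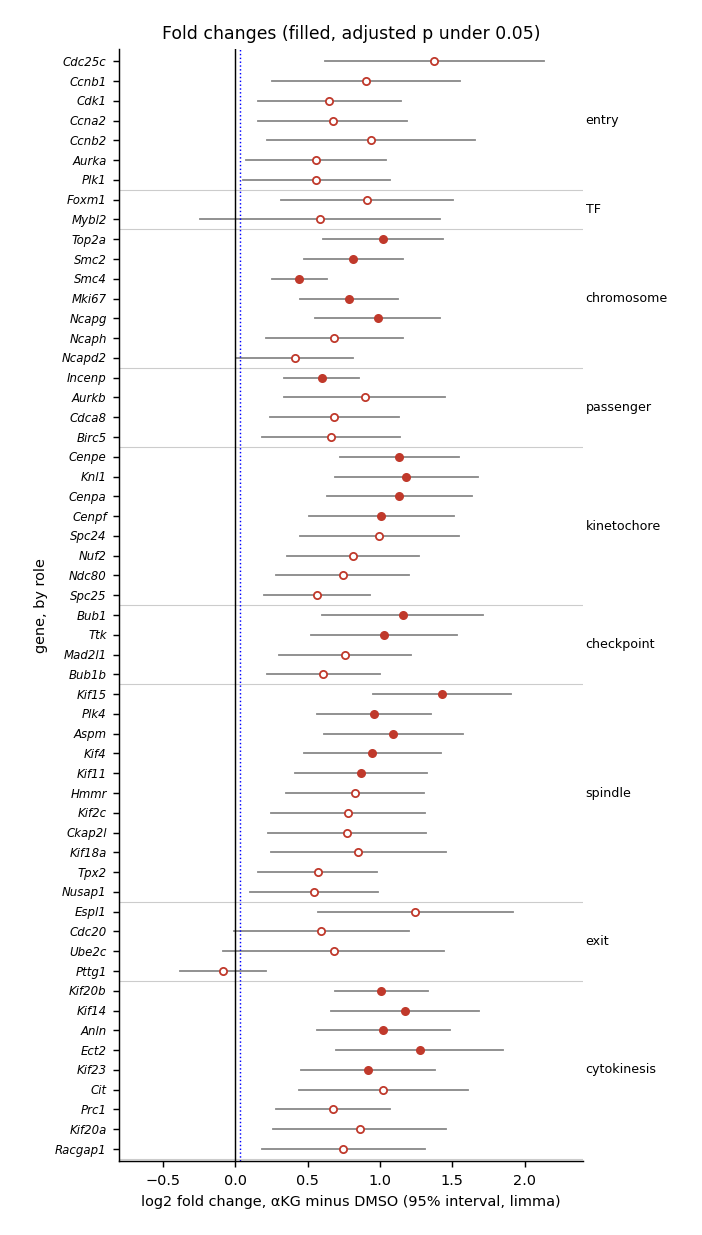
Log2 fold change, αKG minus DMSO, of each of the 56 genes with its 95% limma interval, filled where the adjusted p was under 0.05, with a dotted line at the median of all 20066 genes (0.04). The values run from -0.08 (*Pttg1*) to 1.43 (*Kif15*), and kinetochore and cytokinesis genes have the highest medians, 1.00 and 1.01.

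Per kilobase of exon, the mean normalised counts in αKG were highest for *Mki67* (355 per kb, against 211 in DMSO), *Smc4* (260 against 192) and *Top2a* (192 against 97.7). They were lowest for *Kif18a* (14.4 against 8.48) and *Cdc25c* (17.9 against 7.18). Across the 56 genes the fold change had a Pearson correlation of 0.01 with the log2 mean count, not taken per kb. It was larger for longer genes, with a Pearson correlation of 0.51 and a Spearman correlation of 0.55 with log2 exon length over 56 genes that share the same 6 libraries. After a correction of all genes for GC content and exon length the correlations were 0.31 and 0.29, the median log2 fold change of the 56 was 0.78, and 17 were called, against 2.91% of all genes called higher. Of these, 15 were called without the correction too, *Spc24* and *Espl1* were called only with it, and *Bub1*, *Cenpf*, *Knl1*, *Kif11*, *Smc2*, *Smc4* and *Ncapg* only without it. The uncalled *Kif18a* moved from 0.85 to 0.53. The 22 called genes had a median exon length of 7.26 kb and the other 34 of 4.35 kb, beside 5.41 kb over the 56 and 3.46 kb over all listed genes.

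Called and uncalled genes had close median spreads within DMSO and different median distances above the highest control. Between DMSO replicates 1 and 3 the median log2 difference was 0.94 in the 22 called genes and 0.98 in the 34 others. From DMSO replicate 1 to the αKG mean it was 0.54 and 0.14. This last distance was widest in *Kif15* (0.96), *Cdc25c* (0.84), *Ect2* (0.76) and *Cenpe* (0.70). It was below 0 in *Ube2c* (-0.19), *Pttg1* (-0.14), *Cdc20* (-0.08), *Plk1* (-0.02) and *Mybl2* (-0.01), and the genes of entry (median 0.08) and exit (median -0.11) were nearest to DMSO replicate 1. Kinetochore genes (median 0.49) and checkpoint genes (median 0.47) stood farthest above it. These are descriptions within 1 set of libraries, since the distances and the calls rest on the same values.

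**Figure D5:**
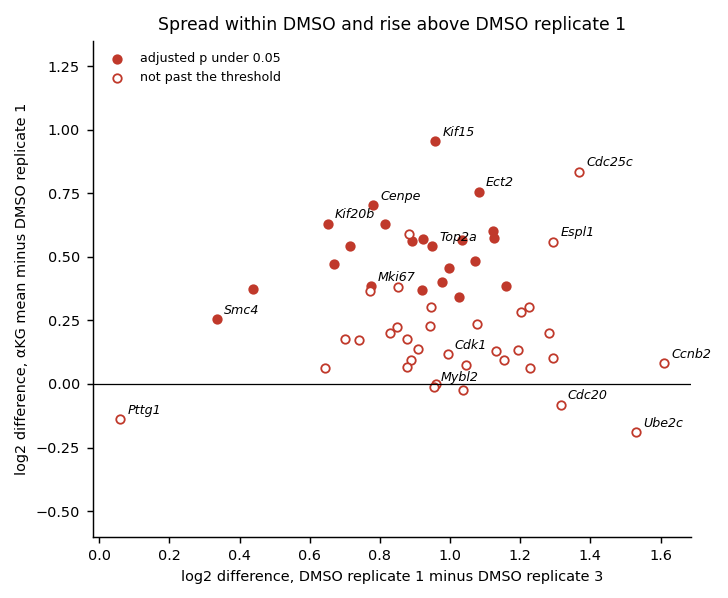
Each point is 1 of the 56 genes, with the log2 difference between DMSO replicates 1 and 3 across and the log2 difference between the αKG mean and DMSO replicate 1 upwards, so that DMSO replicate 1 enters both axes. Filled points (adjusted p under 0.05) all lie above 0.25 upwards, and *Ube2c*, *Pttg1* and *Cdc20* are the lowest, below 0.

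The αKG libraries also had an order of their own. αKG replicate 3 was the highest of the 6 libraries in 36 of the 56 genes, against 13% of all genes, αKG replicate 1 in 17, αKG replicate 2 in 1 and DMSO replicate 1 in 2. αKG replicate 3 exceeded the mean of the other αKG libraries most in *Mybl2* (1.29), *Spc24* (0.57), *Foxm1* (0.52) and *Aurkb* (0.50). It was lowest relative to them in *Cenpa* (-0.51), *Ect2* (-0.50), *Cdc25c* (-0.45) and *Cenpe* (-0.40). At or below DMSO replicate 1, at least 1 αKG library was found in 14 genes, and above DMSO replicates 2 and 3 all αKG libraries stood in 55, *Pttg1* being the exception. Of the counts in this paragraph, only the 36 was set beside a share of all genes.

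Like the 56, a list of 64 further mitotic genes was chosen with earlier results of these data known. Read from the same 6 libraries, these genes, none among the 56, gave similar counts. Of these, 16 rose and 0 fell, against 2.83% and 0.952% of all genes, 57 were higher at an unadjusted p under 0.05, against 15.7%, the groups were separate in 45, against 13.7%, and the median log2 fold change was 0.88. *Kntc1*, which recruits dynein to kinetochores, went from 164, 124 and 94 normalised counts to 348, 309 and 342, a rise of 1.41 ± 0.18 (adjusted p = 0.00712). *Arhgap11a*, a RhoA regulator of cytokinesis, went from 343, 254 and 205 to 536, 558 and 486, a rise of 1.01 ± 0.16 (adjusted p = 0.0204). *Ncapg2* of condensin II rose by 0.94 ± 0.16 (adjusted p = 0.027) and *Hjurp*, the chaperone of the centromeric histone, by 0.72 ± 0.14 (adjusted p = 0.0315). In 54 of these genes with a promoter, 63% held CHR letters and 70.4% CCAAT. The count of 16 was 24 without DMSO replicate 1, 27 without αKG replicate 3 (26 higher, 1 lower) and 0 without DMSO replicate 2, DMSO replicate 3, αKG replicate 1 or αKG replicate 2.

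Lists of partner complexes and regulators had median log2 fold changes near 0. Of 16 subunits of the anaphase-promoting complex, 0 passed in limma and 8 had an unadjusted p under 0.05 (3 higher, 5 lower, against 15.7% and 12.4% of all genes), with a median log2 fold change of -0.10. Log2 fold changes were positive in 7 of the 16 and negative in 9. The groups did not overlap in 4 with αKG higher and in 6 with αKG lower, against 2755 and 2920 of all 20066 genes. *Anapc1*, the largest scaffold of the complex, had 1029, 1026 and 1017 normalised counts in DMSO and 1269, 1204 and 1100 in αKG. *Anapc2* had 540, 528 and 567 against 467, 427 and 488. Of 10 cohesin genes 0 passed and 2 had an unadjusted p under 0.05 (2 higher, 0 lower, beside the same shares of all genes), with a median of 0.01. *Nipbl*, the cohesin loader, had 1619, 1781 and 1779 against 1719, 1751 and 1727. *Smc1a* had 810, 805 and 834 against 930, 1015 and 921, without overlap, and a log2 fold change of 0.23 ± 0.07 (adjusted p = 0.0783). Of 11 DREAM and MuvB regulators 0 passed and 2 had an unadjusted p under 0.05 (1 higher, 1 lower, beside the same shares), with a median of -0.03. *Rbl1*, the pocket protein p107, had the highest log2 fold change among them, 0.56 ± 0.19 (adjusted p = 0.11), with 245, 226 and 177 against 266, 271 and 434. *Lin37* had the lowest, -0.52 ± 0.21 (adjusted p = 0.147), with 66, 70 and 75 against 38, 47 and 64, without overlap. No test between the lists was made.

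Replication genes, which act before mitosis in the same cycle, were read from the same fit. Of 36 genes of DNA replication and S phase, 3 rose, against 2.83% of all genes called higher. At an unadjusted p under 0.05, 14 were higher, against 15.7% of all genes. A positive log2 fold change was found in 36, against 10611 of all 20066 genes, with a median of 0.39 over the 36. Their library medians were 0.30, 0.00 and -0.29 in DMSO and 0.20, 0.11 and 0.96 in αKG, so that αKG replicates 1 and 2 lay below DMSO replicate 1 and αKG replicate 3 above it. *Mcm2*, of the replicative helicase, had 562, 440 and 368 normalised counts against 415, 417 and 830, with a log2 fold change of 0.22 ± 0.25 (adjusted p = 0.584). *Pola1*, of the primase polymerase, had 239, 216 and 198 against 310, 302 and 395 and rose by 0.62 ± 0.13 (adjusted p = 0.0374). *Pole*, the leading-strand polymerase, had 373, 275 and 186 against 524, 456 and 717 and rose by 1.05 ± 0.24 (adjusted p = 0.0445). In αKG replicates 1 and 2 the division genes were thus at 0.80 and 0.78 and the replication genes at 0.20 and 0.11, and in αKG replicate 3 they were at 0.94 and 0.96. The lists were not tested against each other.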

How the data were processed

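Total RNA of 6 cultures was made into stranded libraries and sequenced as single-end reads. By the study's methods and the submitters' processing notes, reads were trimmed (Trimmomatic 0.39), aligned to mm10 (GRCm38.p5; STAR 2.7.10a) and counted per gene over exons (featureCounts 2.0.3), without reads of several genes or places. Picard 2.27.1 is also among the tools that the submitters list, and no strand setting is stated for the counting. Before deposit, the authors divided gene counts by size factors (DESeq2 1.30.1) and rounded them, so the deposited values are treated as a score and not as raw counts, and no count model was applied. Every gene listed reached 2 or more in at least 1 library.

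All 20066 genes entered 1 limma fit (limma 3.58.1, R 4.3.3) on log2(value + 1), with treatment as its only term and the variance following the mean. P-values were adjusted over all genes (Benjamini-Hochberg, threshold 0.05). A pseudocount of 1 understates the change of low genes. The value of 1 read, 0.926 to 1.12 per library, was estimated from the steps between low values (Python 3.11.15) and gave the estimated reads. DMSO replicates 2 and 3 differed by a chi-square of 1.02 per gene over all genes, near the 1 that counting alone would give. Over the 56 genes it was 7.57, and these libraries were counted as separate samples. DMSO replicate 1 stood at 1.42 from replicate 2 and at 1.93 from replicate 3 over all genes. αKG replicates 1 and 2 differed by 1.52, and αKG replicate 3 stood at 10.8 and 9.82 from them. Exon lengths, GC content and shared exons are those of GENCODE M21, where 99% of the listed genes had identical positions. Fits were tested on simulated data.

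The 56 genes and all lists were chosen with earlier results of these data known. Genes were named by rule: in each role the smallest p and the highest mean, up to 20 called genes, the extreme fold changes, genes with overlapping groups, and in other lists the smallest p and highest means. The remaining members, *Myh7* and the markers at 0 were added outside the rule, and most markers that the rule names are given only in sums. Some genes that the rule names in the other lists are not printed. Alternatives were other pseudocounts, a filter, other scalings, no variance trend, a replicate block, a correction for GC content and length, and the omission of each library.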

Additional observations from a re-analysis of the deposited data

How the results depend on the processing

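The direction held in every alternative fit: 55 of the 56 genes stayed positive, and the median log2 fold change lay between 0.59 and 1.13 when each library was left out and between 0.68 and 0.84 otherwise. The number of calls did not. Main counts were 22 of the 56 and 16 of the 64 further mitotic genes. They were 12 and 7 with a pseudocount of 0.1, 0 and 0 in limma without a variance trend (38 of the 56 at an unadjusted p under 0.05), and 52 and 57 without adjustment. Over all 20066 genes, 759 were called in the main setting and 346, 27 and 5648 in these. Leaving out libraries gave 0 to 34 and 0 to 27. Averaging DMSO replicates 2 and 3, an alternative chosen after seeing the data, gave 0 and 0 in limma (42 of the 56 at an unadjusted p under 0.05, and 19 of all genes called). The cause was not tested. No label ties samples of the same number to each other. Their deviations from the group means correlated at -0.07, 0.14 and 0.00 over genes whose mean was 10 or more and at 0.07, 0.05 and 0.17 over the 56, and 1 of 6 libraries correlated best with its own number. They were not treated as pairs. A fit with the replicate block called 4 and 1, with 46 of all genes called, and the block and the GC and length correction together 27 and 25, with 1103 of all genes. Over the 56 genes and 16 alternatives, 0 gene-level results reversed, 178 lost the call, 30 gained it and 688 kept their side. *Kif15* and *Cenpe* kept the call in 10 of the 16 alternatives and *Kif20b* in 9. Counting error of the summed reads of the 56 was 0.549% to 0.865%, and what depth limits in single genes was not tested.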
